A study of Mus musculus with 208 samples.

Results

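Clmn, Fryl, Lamb1, Arid5a, Synpr, Cystm1, Susd6 and Golm1 are 8 of the 46403 genes listed in each region's count table. They were chosen by their hypothalamic values: Clmn, Fryl, Lamb1 and Arid5a were lower and Synpr and Cystm1 higher in MOR–SAL than in SAL–SAL mice, and Susd6 and Golm1 were higher in MOR–LPS than in SAL–LPS mice. Here the same 8 genes were followed in the hippocampus, prefrontal cortex (PFC) and striatum, where 38, 35 and 37 of the mice also had a hypothalamic library. The hypothalamic values that selected them are given as a description, with no test, and the tests are those of the contrasts and regions that took no part in the choice.

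Nuclear RNA was sequenced from about 5000 sorted NeuN+ (neuronal) nuclei per library, with 1 library per animal and region, 208 libraries from 71 wild-type C57BL/6NTac mice of both sexes. Dams received morphine by minipump at 10 mg/kg per day or saline, pups were raised by drug-naive surrogates and were injected 2 times a day from postnatal day 1 to postnatal day 14 with morphine at 10 mg/kg or saline, and as adults the offspring received LPS, a bacterial endotoxin, or saline 2 h before tissue collection. SAL–SAL mice had saline at both stages, MOR–SAL mice had perinatal morphine and adult saline, SAL–LPS mice had perinatal saline and adult LPS, and MOR–LPS mice had perinatal morphine and adult LPS. In this order the groups held 11, 14, 12 and 14 libraries in the hypothalamus, 13, 12, 14 and 16 in the hippocampus, 10, 12, 10 and 16 in the PFC and 13, 8, 15 and 18 in the striatum. Replicate numbers have 2 parts, a first number (18 in all) and an individual number. Each first number occurred with 1 perinatal exposure and most with both adult challenges; the labels do not say what it marks, so it is called here the family number only as a name. Exposure was given per dam, so exposure and dam cannot be fully told apart. All groups share the pup injections and the surrogate rearing. Tissue samples were punches or gross dissections, so a difference in the neurons captured and a difference in RNA per neuron cannot be told apart.

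The 8 genes do not form a pathway. Clmn encodes calmin, a membrane-anchored protein with paired calponin-homology domains, which in other proteins bind actin. Fryl is the mammalian relative of furry, a large scaffold that works with the NDR and LATS kinases in cell shape and growth. Lamb1 encodes the beta1 chain of laminin, the cross-shaped trimer of basement membranes, and Arid5a encodes an AT-rich interaction domain protein that also binds and stabilizes the mRNA of the cytokine IL-6. Synpr encodes synaptoporin, a synaptic vesicle membrane protein of the synaptophysin family, and Cystm1 a small cysteine-rich transmembrane protein. Susd6 encodes a membrane protein with a sushi domain and is a transcriptional target of p53, and Golm1 encodes a Golgi membrane protein.

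The promoters of the 4 genes that moved lower together, and of Synpr, which moved the other way, are shown to let their composition be compared. Each is 100 bases of the RefSeq promoter entry on GRCm38.p6, ending just before the gene model's outermost start and read 5′ to 3′ on the gene's strand; the Lamb1 window thus ends 59 bases, and the Fryl window 1 base, upstream of the RefSeq start. The windows are chr12:104865077-104865176 (minus strand) for Clmn, chr5:73256620-73256719 (minus) for Fryl, chr12:31265134-31265233 (plus) for Lamb1, chr1:36307633-36307732 (plus) for Arid5a and chr14:13284680-13284779 (plus) for Synpr. Capitals mark the GC box GGGCGG and the CCAAT box, each searched on both strands (CCGCCC and ATTGG are the reverse complements), with overlapping matches counted.
Clmn: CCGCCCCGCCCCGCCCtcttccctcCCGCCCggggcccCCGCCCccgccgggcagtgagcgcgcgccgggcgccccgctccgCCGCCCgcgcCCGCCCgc
Fryl: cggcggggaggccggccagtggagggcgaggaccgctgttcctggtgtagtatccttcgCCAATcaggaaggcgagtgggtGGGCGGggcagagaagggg
Lamb1: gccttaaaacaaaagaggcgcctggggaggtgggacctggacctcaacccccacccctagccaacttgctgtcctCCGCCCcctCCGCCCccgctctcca
Arid5a: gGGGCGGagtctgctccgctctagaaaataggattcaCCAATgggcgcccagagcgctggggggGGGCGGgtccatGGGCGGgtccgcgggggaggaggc
Synpr: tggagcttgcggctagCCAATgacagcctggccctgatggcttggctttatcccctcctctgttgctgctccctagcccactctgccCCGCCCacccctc

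All 5 windows held a GC box, against 24.7% of the 32851 promoters in the table, and Fryl, Arid5a and Synpr also held a CCAAT box, against 18.9%. Clmn stood apart, with 7 GC boxes and a GC content of 92.0%, above that of 99.9% of promoters. The others ran from 64.0% (Synpr) through 66.0% (Lamb1) and 69.0% (Fryl) to 71.0% (Arid5a), and the median promoter had 55.0%. None of the 5 held TATAAA, found in 5.56% of promoters on either strand, or the cAMP response element TGACGTCA, found in 1.15%. The letters shared by the lower genes were thus also found at the start of Synpr.

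In the mm10 gene models of GENCODE release M21, 7 of the 8 genes have exons free of any other gene's exons. The exception is Golm1 (chr13:59634626-59675811, minus strand), with 29.3% of its exonic bases on exons of the opposite-strand gene Naa35, so that part of its count cannot be assigned with certainty. Clmn (chr12:104763117-104865076, minus) has 2.48% of its exonic bases inside the opposite-strand gene 4930408O17Rik. Fryl (chr5:73019987-73256619, minus), Lamb1 (chr12:31265234-31329644, plus), Arid5a (chr1:36307733-36324029, plus), Synpr (chr14:13284780-13616340, plus), Susd6 (chr12:80790510-80880835, plus) and Cystm1 (chr18:36342520-36403097, plus) have none.

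Levels could not be compared between the hypothalamus and the other regions, because the count tables differ in kind. Of 851 genes of at least 5 CPM in the hypothalamus whose exons lie wholly inside another gene without touching its exons, 822 were listed at 0 in each of the other 3 tables. The hypothalamic table followed exonic length more and the others the whole gene span: with genes split into 4 bins of equal size by the ratio of span to exonic length, the median log2 ratio of the level to the hypothalamic one rose between the lowest and the highest bin, from -0.69 to 0.96 for the hippocampus, from -0.60 to 0.83 for the PFC and from -1.11 to 1.08 for the striatum. Every comparison below was therefore made within a region. Hypothalamic libraries held 7673 to 35077048 counts, 3 of them under 0.5 of the median of 5543589, and the shallowest libraries elsewhere held 227025 (hippocampus), 3056648 (PFC) and 5954700 (striatum). Y-linked genes went against the labelled sex in 4 hippocampal and 2 PFC libraries and in 0 of the hypothalamic and striatal ones. Neuronal markers (Rbfox3, Snap25, Syt1, Map2 and Stmn2) were present in all groups. The labelled region was less clear in some libraries: hypothalamic markers (8 genes, among them Agrp, Pomc, Oxt and Avp) summed to between 0.211 and 225 CPM in SAL–SAL hypothalamus, and striatal markers (5 genes, among them Drd1 and Drd2) had group medians of 433 to 539 CPM in the PFC, next to 431 to 507 CPM in the striatum. Cortical markers (4 genes) ran in the PFC from 0.924 through 356 to 791 CPM in SAL–SAL and from 0.942 through 222 to 681 in MOR–SAL mice. Thalamic markers (6 genes) ran in the striatum from 669 through 2561 to 5588 CPM in SAL–SAL and from 2043 through 4512 to 5733 in MOR–SAL mice. The part of such differences in the contrasts of these regions was not tested.

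The 4 genes with lower hypothalamic levels in MOR–SAL mice had a wide spread among SAL–SAL libraries. The standard deviation over the mean ran from 0.81 (Lamb1) to 0.99 (Fryl), next to 0.80 for Golm1 and 0.67 for Synpr. Levels are CPM, counts scaled to a common library total, with TMM adjusting that total for library composition. Clmn ran from 61.4 CPM through a median of 204 to 762 in the 11 SAL–SAL libraries and from 33.5 through 56.0 to 137 in the 14 MOR–SAL libraries. The log2 fold change (log2FC) was -1.78 with a 95% interval of -2.35 to -1.21. The groups overlapped, but all 14 MOR–SAL libraries lay below the SAL–SAL median, as they did for the 3 genes that follow. Fryl ran from 69.4 through 264 to 1716 CPM in SAL–SAL and only from 157 through 204 to 254 in MOR–SAL mice (log2FC -1.30, interval -1.79 to -0.82). Lamb1 ran from 4.34 through 53.6 to 168 CPM in SAL–SAL and from 9.50 through 17.6 to 31.1 in MOR–SAL mice (log2FC -1.73, interval -2.38 to -1.08). Arid5a, the regulator of IL-6 mRNA, ran from 4.34 through 17.5 to 94.0 CPM and from 7.85 through 11.6 to 15.2 (log2FC -1.41, interval -2.04 to -0.79).

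Synpr and Cystm1 were the pair with higher hypothalamic levels in MOR–SAL mice. Synpr ran from 0 through 18.6 to 31.7 CPM in SAL–SAL and from 35.4 through 54.7 to 72.2 in MOR–SAL mice (log2FC 1.67, interval 0.99 to 2.36). It was the only one of the 6 genes whose groups did not overlap, but these values chose the gene, so nothing is read from that. The share of all genes whose groups did not overlap was not counted. The lowest Synpr library had 0 of 5766136 reads, which allows up to 0.520 CPM. Cystm1 ran from 7.53 through 21.2 to 33.1 CPM and from 29.1 through 39.9 to 60.3 (log2FC 1.02, interval 0.57 to 1.47), and all 14 MOR–SAL libraries of both genes lay above the SAL–SAL median. By construction 6 of these 6 genes passed an adjusted p under 0.05 in this contrast, where 1.44% of the 28859 genes tested did, and nothing is read from that count.

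**Figure D1:**
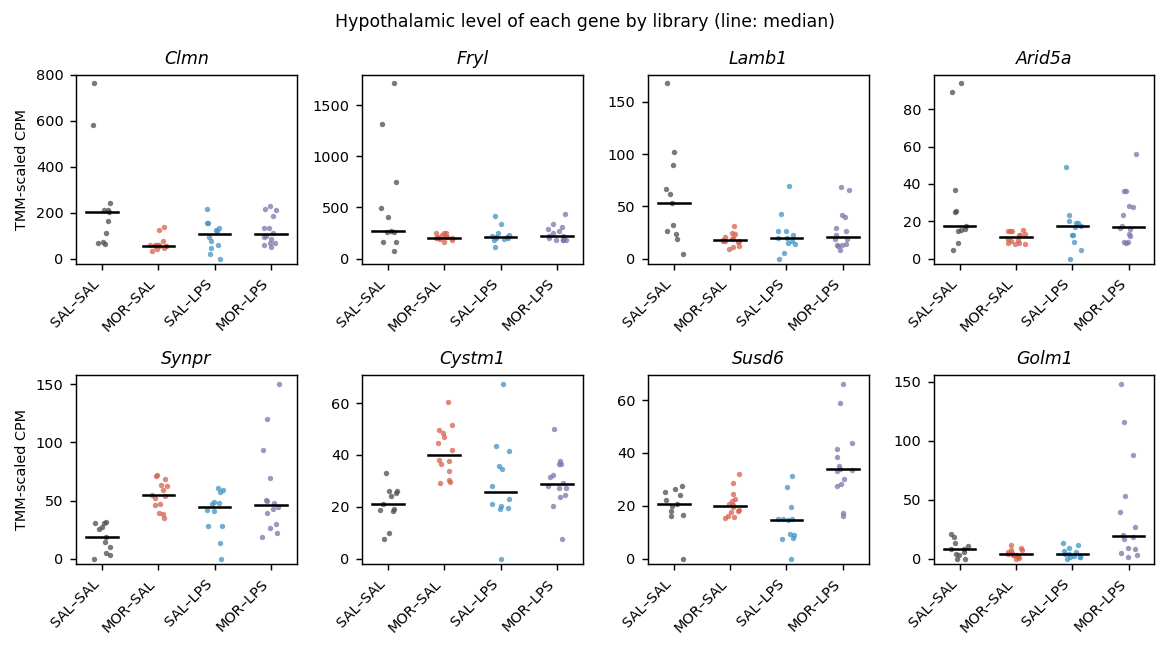
Level of each gene in every hypothalamic library (TMM-scaled CPM, linear axes starting near 0, 1 panel a gene) by treatment group, with a line at the group median. The SAL–SAL group reaches 762 CPM for Clmn and 1716 CPM for Fryl while the MOR–SAL group stays at or under 137 and 254 CPM, and the MOR–LPS group of Golm1 spreads up to 148 CPM.

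The highest SAL–SAL values came from a single family number. The 2 mice numbered 10 gave both of the highest hypothalamic libraries for Clmn (762 and 580 CPM), Fryl (1716 and 1319 CPM), Lamb1 (168 and 102 CPM) and Arid5a (89.5 and 94.0 CPM), and their libraries were among the lowest for Synpr, with 3.44 and 0 CPM. Without family 10, Clmn had a log2FC of -1.24, Synpr of 1.42, Lamb1 of -1.10, Arid5a of -0.74 and Fryl of -0.58, and 3 of the 6 genes (Clmn, Synpr and Cystm1) were still past the threshold. In the remaining 9 SAL–SAL libraries the medians were 162 CPM for Clmn, 263 for Fryl, 31.8 for Lamb1 and 15.9 for Arid5a. The highest of the 14 MOR–SAL libraries stood at 137, 254, 31.1 and 15.2 CPM, only just below the median for Lamb1 and Arid5a. Nothing is read from this, since these values chose the genes. The thalamic marker list (Tcf7l2, Prkcd, Lef1, Rora, Ramp3 and Tnnt1; all 6 measured and none at 0 throughout) moved with these libraries: its summed level was 3158 and 2072 CPM in family 10, ran from 81.6 through 381 to 3158 CPM over all SAL–SAL libraries, from 81.6 through 302 to 1472 without family 10, and from 82.5 through 163 to 834 in MOR–SAL mice. The choroid plexus list (Ttr, Folr1, Kl and Clic6) ran from 0.383 through 30.3 to 286 CPM in SAL–SAL and from 1.44 through 7.47 to 19.3 in MOR–SAL mice, and the oligodendrocyte genes Mbp, Mog, Mobp, Mag and Cnp together from 60.7 through 201 to 2814 and from 45.1 through 189 to 317. The cortical list of 4 genes ran from 0 through 25.5 to 71.5 CPM in SAL–SAL mice, highest in both family 10 libraries, and from 1.75 through 7.14 to 24.9 in MOR–SAL mice. The hypothalamic list of 8 genes ran from 0.211 through 39.4 to 225 CPM in SAL–SAL and from 5.79 through 98.8 to 176 in MOR–SAL mice. A hippocampal list of 4 genes ran from 113 through 252 to 714 CPM in SAL–SAL and from 229 through 352 to 448 in MOR–SAL mice. Their part in the 6 genes' values was not tested.

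In the other regions the family 10 mice held no steady rank. Animal 1 of the family ranked 4th of 10 SAL–SAL libraries for Clmn in the PFC (46.7 CPM, median 41.9) and 8th of 13 in the striatum (104 CPM, median 108). For Fryl it had 202 CPM in the PFC (median 164) and 231 in the striatum (median 274). Animal 3 had 140 CPM of Clmn in the hippocampus (median 102), 48.4 in the PFC and a striatal level of 35.0, which ranked 12th of 13. Its Arid5a level was the highest of the 13 SAL–SAL libraries in the hippocampus (15.2 CPM) and the lowest of the 13 in the striatum (1.66 CPM).

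The first question was whether perinatal morphine shifted the 6 genes in the other regions of saline-challenged mice. None of the 8 genes passed an adjusted p under 0.05 for MOR–SAL vs SAL–SAL in the hippocampus, PFC or striatum by edgeR's quasi-likelihood test, and by DESeq2 and limma-voom 0 did as well. In each of these regions 0% of the genes tested passed (0 genes of 22076, 21729 and 23426), although 2272, 2185 and 2683 had an unadjusted p under 0.05. Of the 8 genes, 0 for the hippocampus, 0 for the PFC and 1 for the striatum had an unadjusted p under 0.05. This was Golm1, at -1.12 (-2.02 to -0.22, adjusted p = 0.338 by edgeR), which moved to -0.41 without family 3. The 6 genes had a median absolute log2FC of 0.16 (hippocampus), 0.14 (PFC) and 0.27 (striatum). The hypothalamic median was 1.54, but those values chose the genes for their size, so nothing is read from the gap, and no test of region by exposure was made.

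Clmn, the calponin-homology protein, had log2FC values of -0.11 (interval -0.62 to 0.39) for the hippocampus, 0.17 (-0.58 to 0.93) for the PFC and 0.04 (-0.96 to 1.04) for the striatum. Its levels in the striatum ran from 16.8 through 108 to 292 CPM in SAL–SAL and from 20.7 through 124 to 353 in MOR–SAL mice, so both groups covered nearly the same range. In the hippocampus they ran from 25.6 through 102 to 208 and from 56.2 through 96.0 to 193 CPM. Fryl, the furry relative, was measured more closely: its log2FC was -0.21 (-0.50 to 0.07) for the hippocampus, 0.07 (-0.27 to 0.41) for the PFC and 0.12 (-0.41 to 0.66) for the striatum. Its PFC levels ran from 77.0 through 164 to 252 CPM in SAL–SAL and from 130 through 175 to 216 in MOR–SAL mice. Both genes' groups overlapped in all 3 regions.

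Lamb1, the laminin chain, had log2FC values of 0.06 (-0.30 to 0.43), 0.11 (-0.53 to 0.75) and 0.25 (-0.20 to 0.71) in the hippocampus, PFC and striatum. The signs of Lamb1 and Clmn changed under alternative settings in each of the 3 regions, those of Arid5a in the hippocampus and striatum, those of Fryl in the PFC and striatum, that of Synpr in the hippocampus and that of Cystm1 in the PFC. Its hippocampal levels ran from 27.5 through 56.7 to 75.4 CPM in SAL–SAL and from 32.0 through 56.8 to 94.8 in MOR–SAL mice. Arid5a was measured with wide intervals, with a log2FC of 0.20 (-0.78 to 1.18) for the hippocampus, 0.46 (-0.98 to 1.89) for the PFC and 0.31 (-0.68 to 1.29) for the striatum. Its medians were low, between 5.20 and 9.13 CPM in these 6 groups, and 1 hippocampal MOR–SAL library of low depth stood at 86.9 CPM. A doubling of Arid5a lies within the interval of each of the 3 regions.

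Synpr, the vesicle protein, had a log2FC of 0.10 (-0.35 to 0.55) for the hippocampus, 0.16 (-0.34 to 0.67) for the PFC and -0.35 (-0.78 to 0.09) for the striatum. Its striatal levels ran from 76.6 through 147 to 267 CPM in SAL–SAL and from 73.6 through 104 to 175 in MOR–SAL mice, and 6 of 8 MOR–SAL libraries lay below the SAL–SAL median. Cystm1 had a log2FC of 0.20 (-0.11 to 0.51) for the hippocampus, -0.11 (-0.56 to 0.34) for the PFC and 0.28 (-0.20 to 0.76) for the striatum. In the hippocampus its levels ran from 38.8 through 61.7 to 98.9 CPM in SAL–SAL and from 63.2 through 72.5 to 87.7 in MOR–SAL mice. All 12 hippocampal MOR–SAL libraries lay above the SAL–SAL median, but inside the SAL–SAL range.

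**Figure D2:**
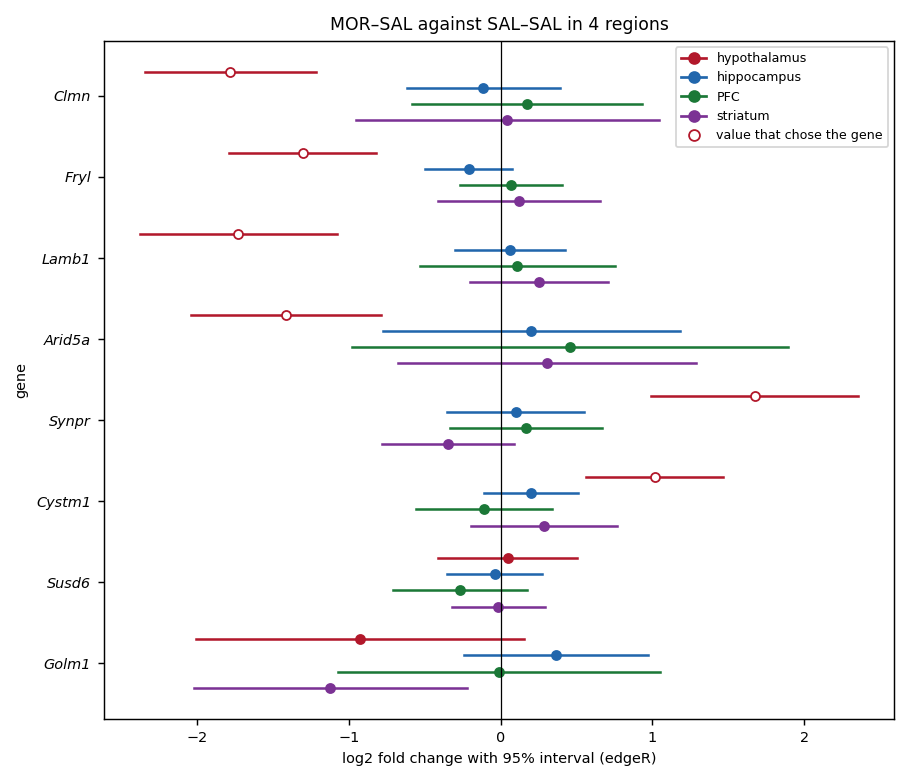
The log2 fold change of MOR–SAL against SAL–SAL (x axis, with 95% intervals from edgeR) for the 8 genes (y axis) in 4 regions, with open circles at the hypothalamic values that chose a gene. The open circles lie between -1.78 and 1.67, and among the filled points only the striatal interval of Golm1 leaves out 0.

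**Figure D3:**
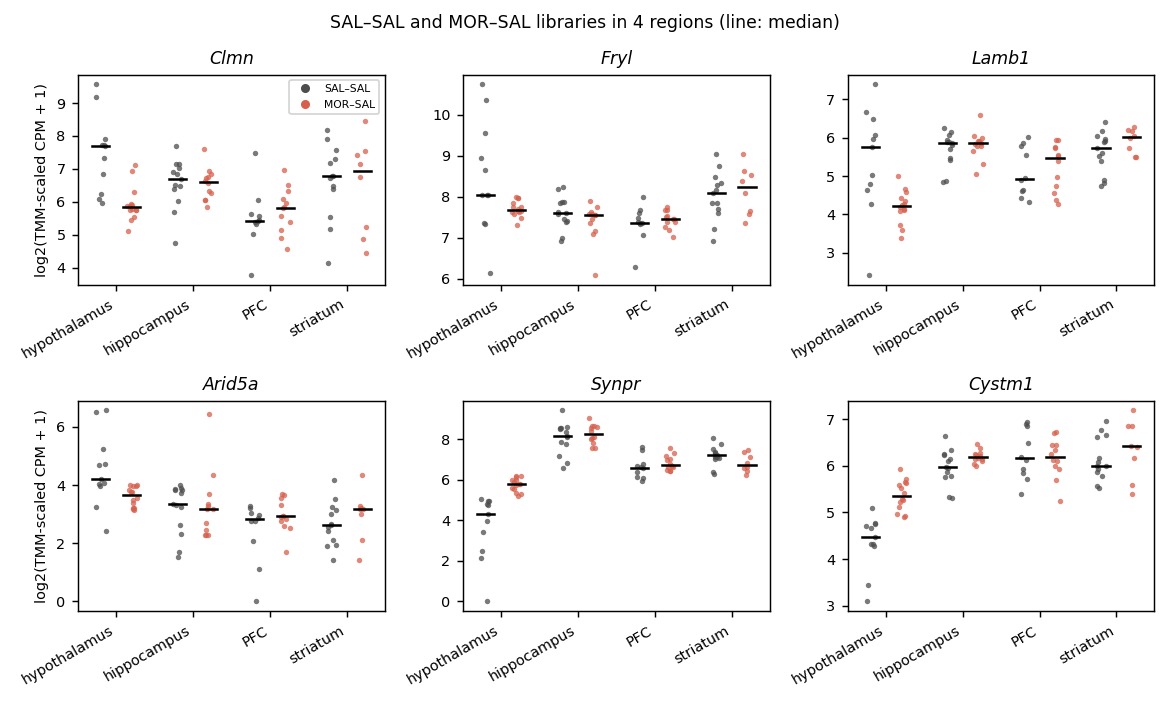
Level of the 6 genes chosen by the saline contrast in every SAL–SAL and MOR–SAL library of 4 regions (y axis, log2 of TMM-scaled CPM plus 1), with a line at the median. In the hypothalamus, whose values chose the genes, the Synpr groups do not overlap, and in each other region the groups of every gene shown overlap. Levels in the hypothalamus and elsewhere come from tables of different kinds and cannot be compared.

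The same 6 genes were next compared in the hypothalamus after LPS, in libraries that took no part in their choice. For MOR–LPS vs SAL–LPS 0 of the 6 passed the threshold (edgeR, adjusted p from 0.625 to 0.955; 0 with an unadjusted p under 0.05), where 1.03% of genes did, and none did by DESeq2 or limma-voom. Clmn had a log2FC of 0.40 (-0.17 to 0.97), Synpr of 0.36 (-0.29 to 1.02), Arid5a of 0.27 (-0.35 to 0.89), Lamb1 of 0.15 (-0.50 to 0.81), Fryl of 0.11 (-0.37 to 0.59) and Cystm1 of -0.12 (-0.55 to 0.31). The signs of Synpr (-0.36) and Lamb1 (-0.08) turned in females alone, that of Arid5a (-0.07) in males alone, and that of Cystm1 in females alone (0.14), without TMM (0.09) and without family 1 (0.05). Arid5a was 0.65 without family 1. Clmn ran from 0 through 106 to 216 CPM in SAL–LPS and from 50.2 through 105 to 227 in MOR–LPS mice, and the 0 came from the library of 7673 reads, where it allows up to 391 CPM. Synpr ran from 0 (in the same library) through 44.2 to 60.9 CPM and from 18.7 through 46.3 to 150. No difference between the exposures was detectable for these genes in LPS-challenged mice at this precision.

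Susd6 and Golm1 were the pair chosen by that contrast. Susd6, the p53 target, ran from 0 through 14.8 to 31.5 CPM in SAL–LPS and from 16.2 through 33.8 to 66.2 in MOR–LPS hypothalamus (log2FC 1.20, interval 0.74 to 1.66). Golm1, the Golgi protein, ran from 0 through 4.20 to 13.0 CPM and from 1.58 through 19.1 to 148 (log2FC 2.74, interval 1.59 to 3.88). Both pairs of groups overlapped. In SAL–LPS mice the 0 of each gene came from the library of 7673 reads, where it allows up to 391 CPM. That library also gave the lowest hippocampal marker sum below. Markers of other tissue moved with these groups: from SAL–LPS to MOR–LPS, the hippocampal list (Prox1, Zbtb20, Neurod2 and Iyd) went from a median of 333 CPM (53.9 to 495) to 479 (206 to 2386), the astrocyte list (Aqp4, Gfap, Slc1a3, Aldh1l1 and Gja1) from 30.4 (0 to 323) to 163 (15.7 to 720) and a cortical list of 4 genes from a range of 2.37 to 152 CPM to one of 7.87 to 343. The MOR–LPS library highest for both Susd6 and Golm1, of family 6, was also the highest for the hippocampal and cortical lists. Without family 6 the log2FC was 1.20 for Susd6 and 2.55 for Golm1, and Golm1 no longer passed. The part of these tissues in the values was not tested. By construction both passed the threshold, and nothing is read from that. In the saline contrast, which did not choose them, Susd6 had a log2FC of 0.05 (-0.41 to 0.50, adjusted p = 0.985 by edgeR) and Golm1 of -0.93 (-2.01 to 0.15, adjusted p = 0.390).

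Elsewhere neither gene passed in MOR–LPS vs SAL–LPS. Susd6 had a log2FC of 0.14 (-0.15 to 0.43) for the hippocampus, 0.18 (-0.24 to 0.61) for the PFC and 0.02 (-0.22 to 0.25) for the striatum. Its striatal levels ran from 39.7 through 74.3 to 105 CPM in SAL–LPS and from 44.5 through 71.0 to 98.8 in MOR–LPS mice, nearly the same range. Golm1 had a log2FC of -0.02 (-0.57 to 0.54) for the hippocampus, 0.40 (-0.63 to 1.44) for the PFC and 0.66 (-0.04 to 1.36) for the striatum. Hippocampal Golm1 ran from 3.97 through 60.8 to 194 CPM in SAL–LPS and from 59.4 through 83.0 to 105 in MOR–LPS mice, so that 15 of 16 MOR–LPS libraries were above the SAL–LPS median while the means were 86.9 and 83.3 CPM. Its log2FC ran from -0.49 (males alone) to 0.48 (limma-voom) over the alternatives. Of all 8 genes 0 passed in each of the 3 regions, where 2.73% (hippocampus), 0.0046% (PFC) and 0% (striatum) of genes did. The genes with an unadjusted p under 0.05 numbered 0, 0 and 1, the last being Lamb1 in the striatum (log2FC -0.43, interval -0.79 to -0.07, adjusted p = 0.291 by edgeR). Striatal Lamb1 ran from 22.9 through 64.8 to 81.2 CPM in SAL–LPS and from 10.1 through 49.6 to 74.6 in MOR–LPS mice.

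**Figure D4:**
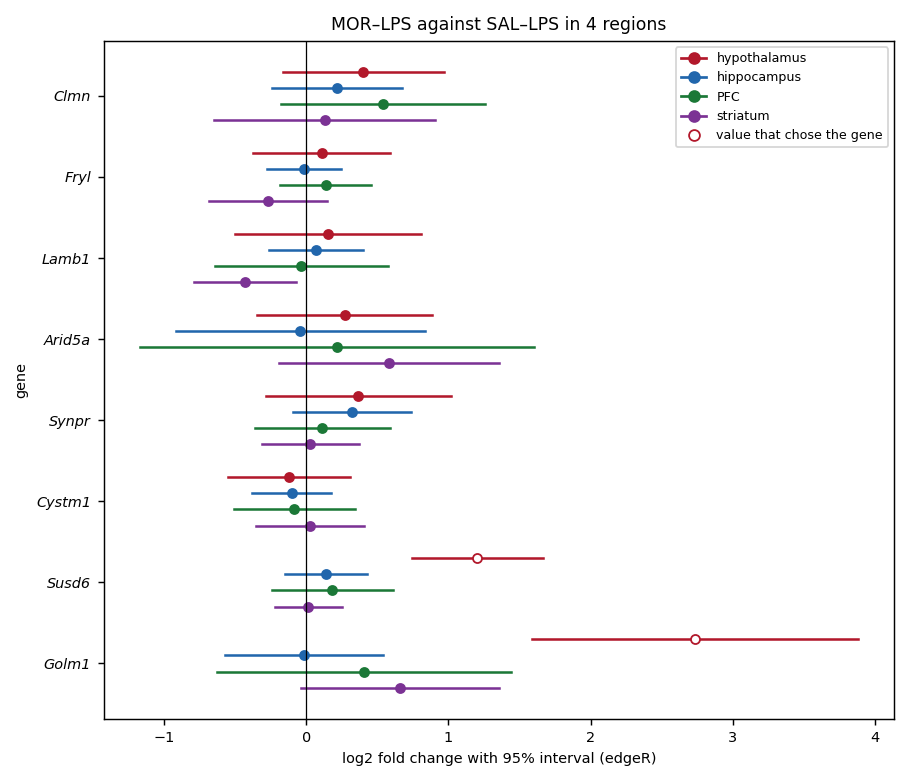
The log2 fold change of MOR–LPS against SAL–LPS (x axis, with 95% intervals from edgeR) for the 8 genes (y axis) in 4 regions, with open circles at the hypothalamic values that chose a gene. Only the open circles of Susd6 (1.20) and Golm1 (2.74) stand clear of 0, apart from striatal Lamb1 at -0.43.

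Averaging the exposure effect over both challenges narrowed the intervals outside the hypothalamus, and still 0 of the 8 genes passed in the hippocampus (2.35% of genes did), PFC (1.22%) or striatum (0.00427%), with 0 under an unadjusted p of 0.05 in each. With dispersions adjusted for low counts these shares were 0.0906%, 0% and 0.00427%, and 0 of the 8 genes passed there too. The averaged log2FC of Fryl was -0.11 (-0.31 to 0.08) in the hippocampus and that of Susd6 0.00 (-0.19 to 0.20) in the striatum. Cystm1 had 0.05 (-0.16 to 0.26) in the hippocampus and Lamb1 0.07 (-0.18 to 0.31).

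The response to LPS itself was followed next. In mice without morphine (SAL–LPS vs SAL–SAL), 0 of the 8 genes passed in the hippocampus (2.55% of genes did), PFC (0%) and striatum (0.0128%), while 2, 0 and 2 had an unadjusted p under 0.05. Hippocampal Cystm1 came closest, with a log2FC of 0.47 (0.17 to 0.77, adjusted p = 0.0640 by edgeR). Its levels ran from 38.8 through 61.7 to 98.9 CPM in SAL–SAL and from 45.2 through 86.4 to 156 in SAL–LPS mice, so the groups overlapped widely. It passed in the fit without the low-depth libraries (adjusted p = 0.0411) and in that without a sex term (0.0451). Hippocampal Lamb1 was at -0.35 (adjusted p = 0.277), and in the striatum Synpr was at -0.61 (-0.97 to -0.24, adjusted p = 0.133) and Golm1 at -0.85 (adjusted p = 0.343), or -0.18 without family 3. Striatal Synpr ran from 76.6 through 147 to 267 CPM in SAL–SAL and from 42.3 through 95.8 to 145 in SAL–LPS mice.

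In morphine-exposed mice (MOR–LPS vs MOR–SAL), 0 of the 8 genes passed in the hippocampus (0.467% of genes did), PFC (0.0184%) and striatum (1.39%), while 0, 0 and 2 had an unadjusted p under 0.05. The latter were striatal Golm1, at 0.93 (0.07 to 1.78, adjusted p = 0.238 by edgeR), and striatal Lamb1, at -0.44 (-0.86 to -0.01, adjusted p = 0.261). The interaction, which is the LPS response of morphine-exposed mice minus that of saline-exposed mice, also passed for 0 of 8 in the hippocampus (2.35% of genes), PFC (1.78%) and striatum (0.00854%), and the first pair of shares fell to 0.104% and 0.17% with adjusted dispersions. Striatal Golm1 had the largest interaction outside the hypothalamus, at 1.78 (0.63 to 2.93, adjusted p = 0.12 by edgeR). It was 1.16 without family 3 and ran over all alternatives from 0.75 (females alone) to 2.96 (males alone). Its levels there ran from 3.90 through 6.69 to 40.3 CPM in SAL–SAL, from 2.21 through 3.86 to 9.03 in MOR–SAL, from 3.39 through 4.47 to 16.2 in SAL–LPS and from 3.13 through 7.46 to 33.2 in MOR–LPS mice, with all groups overlapping. Striatal Lamb1 had an interaction of -0.68 (-1.26 to -0.10, adjusted p = 0.254).

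In the hypothalamus the LPS contrasts share libraries with those that chose the genes, so their values are given without a reading. For SAL–LPS vs SAL–SAL the log2FC was -1.30 for Clmn, -1.26 for Lamb1, -1.20 for Fryl, -0.72 for Arid5a, 1.34 for Synpr and 0.64 for Cystm1, and 2 of the 8 genes (Clmn and Fryl) passed, where 0.246% of genes did. Each of these signs was that of the saline exposure contrast, with which it shares the SAL–SAL libraries. For MOR–LPS vs MOR–SAL the log2FC was 2.92 for Golm1, 0.96 for Arid5a, 0.88 for Clmn and 0.77 for Susd6, which passed, as 6.27% of genes did. Synpr was at 0.03 and Cystm1 at -0.50. The interaction passed for 7 of 8 genes, all but Synpr, and for 3.8% of genes.

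Animals that were high in the hypothalamus were not detectably high in their other regions. Deviations from the mean of treatment and sex were correlated over the 35 to 38 animals with libraries in both regions, in 24 relations (8 genes by 3 regions). Pearson's r ran from -0.28 to 0.54 with a median of 0.086 and was positive in 15 of the 24, and 0 passed an adjusted p under 0.05 by a two-sided permutation test with 100000 resamples (2 had an unadjusted p under 0.05), as 0 did with Spearman's rho. The highest was Cystm1 between hypothalamus and PFC (r = 0.54, raw permutation p = 0.00236, adjusted p = 0.0566; rho = 0.27, raw permutation p = 0.119, adjusted p = 0.792). It rested on few animals, since r was 0.22 without the 2 farthest animals and 0.081 without the low-depth libraries. Without the low-depth libraries 9 of the 24 were positive, over a range of -0.48 (Cystm1, hippocampus) to 0.28, the PFC value of Lamb1 moved from 0.21 to -0.40, and 0 passed. Lamb1 between hypothalamus and striatum had r = 0.36 (raw permutation p = 0.0298, adjusted p = 0.358), rho = 0.38 (raw permutation p = 0.0206, adjusted p = 0.494) and r = 0.25 without the 2 farthest animals or 0.18 without the low-depth libraries.

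Within the hypothalamus Clmn, Fryl and Lamb1 had r of 0.60 to 0.67 with each other around their group means, while Arid5a had 0.52 with Fryl, 0.20 with Clmn and -0.01 with Lamb1. These are libraries that chose the genes. The median r over the 6 pairs of Clmn, Fryl, Lamb1 and Arid5a was 0.56 (from -0.01 to 0.67) over 48 hypothalamic libraries of sufficient depth, 0.18 (from -0.06 to 0.42) over 53 in the hippocampus, 0.08 (from -0.42 to 0.39) over 45 in the PFC and 0.38 (from -0.30 to 0.91) over 54 in the striatum. These are descriptions, and the values of 1 region share libraries and depth. The genes most like each member over the same 48 hypothalamic libraries, among 11510 genes are named next, and since they were picked for that r, nothing is read from a lower r elsewhere. For Clmn they included Nsmf (r = 0.80) and Eml1 (0.78), with r of 0.52 (hippocampus), -0.02 (PFC) and 0.64 (striatum) for Nsmf and of -0.07, -0.13 and 0.52 for Eml1. For Fryl they were Peak1 (0.87), RP24-68G17.4 (0.85) and Nin (0.84), and Peak1 kept 0.68 in the hippocampus and 0.70 in the striatum but 0.04 in the PFC.

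Lamb1 was most like Lrrc7 (0.79), Sorbs2 (0.77) and Il1rap (0.76) in the hypothalamus, with r of 0.05, -0.11 and 0.25 in the hippocampus. Arid5a was most like Trim3 (0.70), Inpp5k (0.67) and Kmt2b (0.67). Synpr was most like Nrp1 (0.82), Hpcal4 (0.81) and Tmeff2 (0.81), of which Nrp1 kept 0.79 in the hippocampus and 0.05 in the PFC. Cystm1 was most like Palm2 (0.73), Dennd3 (0.68) and Ercc3 (0.68), and Susd6 most like Fam19a2 (0.69), Cnih2 (0.65) and Slc8a2 (0.60). Golm1 was most like Zbtb20 (0.65), Olfml2b (0.63) and Foxn2 (0.62), and with Zbtb20 and Olfml2b the likeness was higher in the hippocampus, at 0.86 for both. Zbtb20 is also one of the hippocampal markers used to check the dissections.

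Relatives of the members were read from lists chosen with results on the members known. In the hypothalamic saline contrast 0 of 7 members of the synaptophysin and synaptogyrin family, 0 of 17 laminins, nidogens and laminin receptors, 0 of 9 ARID genes, 0 of 9 p53 targets, 0 of 12 Golgi membrane proteins and 0 of 16 calponin-homology proteins passed the threshold in edgeR, and 1, 3, 1, 0, 3 and 3 of them had an unadjusted p under 0.05, as did 4994 of all 28859 genes. The medians of these lists were 0.22, -0.17, -0.12, 0.01, -0.03 and -0.09 on the log2 scale, next to 0.07 over all genes. Of 11 furry partners and NDR or LATS kinases 1 was lower: Lats2, a Hippo pathway kinase, ran from 0 through 20.3 to 40.6 CPM in SAL–SAL and from 5.80 through 10.9 to 14.6 in MOR–SAL mice (log2FC -1.06, SE 0.28, adjusted p = 0.0369 by edgeR). It passed in only 5 of 17 fits with a family left out. Of 7 measured genes of IL-6 mRNA stability and signaling 1 was lower: Il6ra, the IL-6 receptor, ran from 0 through 2.30 to 6.70 CPM and from 0 through 0.198 to 0.956 (log2FC -2.86, SE 0.79, adjusted p = 0.0441), and also passed in 5 of 17 fits with a family left out but not with the stricter filter (adjusted p = 0.0579). Of 7 sushi-domain relatives 1 was lower, Susd3, which was at 0 in all 14 MOR–SAL and in 8 of 11 SAL–SAL libraries (adjusted p = 0.00982). It did not pass with dispersions adjusted for low counts (adjusted p = 0.198), and no fold is given for it. In the same contrast 0 relatives in any of the 9 lists passed in the hippocampus, PFC or striatum.

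In the hypothalamus of morphine-exposed mice (MOR–LPS vs MOR–SAL), where 6.27% of genes passed, the laminin chain Lama2 (log2FC 1.77, SE 0.52) and the laminin receptor subunit Itga7 (1.44, SE 0.38) were higher, as were Lats2 (1.21, SE 0.27), Il6ra (4.09, SE 0.79), the p53 targets Cdkn1a (2.69, SE 0.45) and Sesn1 (0.60, SE 0.19) and the calponin Cnn3 (1.64, SE 0.39), and the Golgi protein gene Gorasp1 was lower (-0.80, SE 0.26). Marker lists moved in the same contrast: from MOR–SAL to MOR–LPS the astrocyte list went from a median of 25.1 CPM (14.3 to 43.6) to 163 (15.7 to 720), the hippocampal list from 352 (229 to 448) to 479 (206 to 2386), and the cortical list from a range of 1.75 to 24.9 CPM to one of 7.87 to 343. Oligodendrocyte markers (6 genes) went from 330 (71.2 to 638) to 550 (225 to 6144) and microglial ones (5 genes) from 19.1 (11.0 to 30.8) to 29.7 (9.06 to 121). The hypothalamic list went the other way, from 98.8 (5.79 to 176) to 39.2 (0.679 to 258). The part of these tissues and cells in these genes' values was not tested. Gorasp1 passed in 5 and Sesn1 in 8 of 17 fits with a family left out, and Gorasp1 did not pass with the stricter filter (adjusted p = 0.0803). Cdkn1a, the cell cycle inhibitor p21, ran from 0.144 through 5.81 to 8.88 CPM in MOR–SAL and from 4.95 through 11.1 to 132 in MOR–LPS mice (adjusted p = 0.000183 by edgeR), and it stayed past the threshold with each of the 17 families left out. It was also higher in the striatum in this contrast (2.67, SE 0.61, adjusted p = 0.0198), where 1.39% of genes passed, together with the nuclear envelope protein Syne2 (0.87, SE 0.21), while the cytolinker Plec was lower (-0.74, SE 0.18). Striatal marker medians went from 23.3 CPM (15.1 to 40.4) to 43.2 (20.6 to 329) for astrocytes and from 7.60 (4.76 to 23.3) to 15.3 (4.44 to 153) for microglia. Oligodendrocyte markers went from 323 (208 to 1186) to 513 (170 to 4422), and thalamic ones fell from 4512 (2043 to 5733) to 3097 (543 to 4733). The part of these cells in the striatal calls was not tested. The cytokine-signaling inhibitor Socs3 passed there too, but was at 0 in 6 of 8 MOR–SAL libraries, with a MOR–LPS median of 0.513 CPM, and passed in only 6 of 18 fits with a family left out, so no fold is given.

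In the hippocampus Cdkn1a (1.92, SE 0.51, adjusted p = 0.0314) and Stat3, a transcription factor downstream of IL-6 (1.02, SE 0.24, adjusted p = 0.0268), were higher in SAL–LPS than in SAL–SAL mice, where 2.55% of genes passed. Stat3 ran from 21.9 through 39.3 to 56.5 CPM in SAL–SAL and from 23.6 through 60.9 to 223 in SAL–LPS mice. The p53 target Ccng1 (0.83, SE 0.23, adjusted p = 0.0370) and the laminin chain Lamc3 (4.41, SE 0.94, adjusted p = 0.0145) were higher in MOR–LPS than in SAL–LPS hippocampus (2.73% of genes passed), where Lamc3 was at 0 in 8 of 14 SAL–LPS and 2 of 16 MOR–LPS libraries. With the exposure effect averaged (2.35% of genes passed), Lamc3 was higher (2.41, SE 0.63) and the actinin Actn2 lower (-0.92, SE 0.27) in the hippocampus. With the stricter count filter of edgeR, none of these 5 hippocampal genes passed in these contrasts (adjusted p from 0.0584 to 0.452), and with dispersions adjusted for low counts Lamc3 and Actn2 no longer passed in the averaged contrast (adjusted p = 0.128 and 0.140). In the hypothalamus Arid3c passed for MOR–LPS vs SAL–LPS, as 1.03% of genes did (adjusted p = 0.0471, and 0.137 with adjusted dispersions) with 0 in all 12 SAL–LPS and in 10 of 14 MOR–LPS libraries, and no fold is given. The interaction passed in the hypothalamus for Il6ra (5.54), Lama2 (2.56), Itga7 (2.47), Cnn3 (2.35), Lats2 (1.67) and Susd3, as it did for 3.8% of all genes. It includes the libraries of the saline contrast, in which Il6ra, Lats2 and Susd3 were lower, and the MOR–SAL median of Il6ra was only 0.198 CPM. The Lama2 interaction did not pass with the stricter filter (adjusted p = 0.107) or DESeq2 (0.0549) and passed in 7 of 17 fits with a family left out, and Susd3 did not pass with adjusted dispersions (0.339). By edgeR 0 relatives passed in the PFC in any contrast.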

How the data were processed

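The authors deposited raw counts per gene, 1 table per region, made from reads trimmed with Trim Galore 0.6.7 and mapped with STAR 2.7.10a to mm10 with GENCODE vM25 gene models; the submitters' processing notes also name HTSeq 0.12.4 and DESeq2 1.40.2. Strand use in counting is not given in the sources used here, and the hypothalamic table was counted differently from the others, so contrasts were fitted within regions. Libraries were modified Smart-seq3 from NeuN+ nuclei. Groups, sex and replicate numbers came from the labels; the first part of that number, called here the family number, is taken as a possible litter, which the labels do not state. The members and gene lists were chosen with earlier results of these data known.

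Genes with a total count above 10 were tested with edgeR 4.0.16 (R 4.3.3; TMM scaling, quasi-likelihood F test, 4 treatment means and a sex term) with Benjamini-Hochberg adjustment over all genes of a region, called at an adjusted p under 0.05. Animals were the units, and families are nested in exposure, so p-values for exposure would be too small where mice of a family are alike. The fits were tested on data simulated from hippocampal means and totals, with a dispersion trend and no differences between families or dissections. Folds were recovered without bias, but the default edgeR fit called too many sparse genes. Each tool called somewhat more false genes than its nominal rate. The counts of called genes, and calls of genes with few reads, are therefore of limited reliability. The simulation cannot show how reliable the calls of the 8 members are in the hypothalamus. Alternatives were DESeq2 1.42.0, limma-voom (limma 3.58.1) with a correlation within families, other filters and scalings, family as a block, no sex term, each sex alone, omission of libraries of low depth or against the labelled sex, and each family left out. An edgeR fit with dispersions adjusted for low counts was added after seeing the data. Intervals are 95% and cover the spread between libraries; floors for a count of 0 cover counting error only.

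All 8 members were described. For each, the 3 genes most like it in the hypothalamus were named by Pearson's r of log2(TMM-scaled CPM + 1) minus the mean of treatment and sex, and of each relatives list up to 4 called genes. Correlations between regions used two-sided permutation tests with scipy 1.17.1. Promoters were read from RefSeq for GRCm38.p6; 7 of the 8 members had an entry there, and some genes and sequences are not reported here.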

Additional observations from a re-analysis of the deposited data

Results flagged for a closer look

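In the groups of 4 to 10 libraries, 24 sets of 1 gene in 1 group were examined for a library far from the others, by its gap to the nearest library divided by the group's range (Dixon's ratio, 95% critical values), and 4 passed; chance alone passes about 1 in 20 such sets. In the PFC, 1 SAL–SAL library (family 9) had 180 CPM of Clmn with the next at 65.6 (ratio 0.683, critical value 0.466, n = 10). In the PFC, 1 SAL–LPS library (family 4) had 24.1 CPM of Arid5a with the next at 8.36 (ratio 0.653, n = 10). In the striatum, the same MOR–SAL library (family 15) stood highest for Arid5a, at 19.4 CPM with the next at 8.79 (ratio 0.597, critical value 0.526, n = 8), and for Susd6, at 96.1 CPM with the next at 70.8 (ratio 0.563). The hypothalamic groups held more than 10 libraries and were not examined in this way, and the family 10 libraries are described above.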

How the results depend on the processing

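Outside the hypothalamus no member passed in any contrast under any alternative, except hippocampal Cystm1 after LPS without morphine, so that 1 of 8 in place of 0 passed without a sex term (adjusted p = 0.0451), without low-depth libraries (0.0411) and without family 2, 4 or 12 (0 to 1 over the families left out). No called value changed sign. In the hypothalamus the 6 genes chosen by the saline contrast fell to 2 with limma-voom (Clmn and Synpr), to 4 in females alone, to 0 in males alone, where log2FC ran from -1.45 (Lamb1) to 1.48 (Synpr), and to 3 to 6 with a family left out, the 3 being without family 10; DESeq2 and the adjusted edgeR fit called 6. Fewer libraries enter the fits of 1 sex, and the cause of the other losses was not tested. The pair chosen after LPS (2 genes) fell to 1 with the stricter filter and with limma-voom, both losing Golm1 (adjusted p = 0.0770 and 0.190), to 0 in females alone and in males alone, and to 0 to 2 with a family left out, where Golm1 was lost without family 4, 6, 8, 9 or 14 and Susd6 without 8, 9 or 14. The family number was not shown to pair mice, since the labels do not say what it marks. The correlation within families was between -0.0489 and 0.0288 over regions. It is 1 value per region over all genes, so it cannot show how alike mice of a family are for these 8 genes. The mice of family 10 were alike in the hypothalamus for Clmn, Fryl, Lamb1, Arid5a and Synpr. With the family number as a replicate block, the hypothalamic calls went from 2 to 1 for SAL–LPS vs SAL–SAL (Clmn left), from 4 to 2 for MOR–LPS vs MOR–SAL and from 7 to 2 for the interaction (Clmn and Golm1 left in both, with interactions of 2.11 and 3.50), and elsewhere 0 of 8 were called. Exposure contrasts could not be blocked, since each family had 1 exposure.

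Counts over all genes depended far more on the test. With the main fit, the stricter filter, DESeq2, limma-voom and the adjusted edgeR fit, MOR–SAL vs SAL–SAL in the hypothalamus called 416, 170, 437, 11 and 544 genes, MOR–LPS vs SAL–LPS there 298, 3, 50, 174 and 398, and SAL–LPS vs SAL–SAL 71, 14, 118, 0 and 271. MOR–LPS vs MOR–SAL there called 1809, 633, 1269, 452 and 1964, and the interaction 1098, 112, 348, 25 and 752. In the hippocampus these were 602, 1, 145, 98 and 557 (MOR–LPS vs SAL–LPS), 563, 2, 179, 63 and 593 (SAL–LPS vs SAL–SAL), 518, 1, 14, 72 and 20 (averaged exposure), 103, 4, 53, 0 and 99 (MOR–LPS vs MOR–SAL), and 519, 0, 7, 2 and 23 (interaction). In the PFC the averaged exposure called 265, 0, 12, 0 and 0, the interaction 387, 0, 34, 0 and 37, and SAL–LPS vs SAL–SAL 0, 1, 71, 0 and 20. In the striatum MOR–LPS vs SAL–LPS called 0, 0, 91, 1 and 287, the interaction 2, 0, 125, 0 and 0, and MOR–LPS vs MOR–SAL 325, 268, 706, 137 and 399. For MOR–SAL vs SAL–SAL outside the hypothalamus they were 0, 0, 7, 3 and 0 (hippocampus), 0, 0, 16, 0 and 0 (PFC) and 0, 0, 6, 0 and 1 (striatum).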
